A study of Mus musculus with 6 samples.

Results

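The genes described here are Klrg1 and 9 other genes known from killer lymphocytes: Klrd1, Klrk1, Klrb1c, Ncr1, Nkg7, Prf1, Gzma, Ccl5 and Cd8b1. They were chosen by symbol, as receptors and granule genes of natural killer (NK) cells and CD8 T cells, and all 10 were found among the 32285 entries of the count table. All 10 also passed the expression filter that left 17307 genes for testing. The bulk RNA-seq data came from regulatory T cells (Tregs) sorted as CD4+CD25+ from the spleens of C57BL/6 mice, with 3 libraries from Zfp335-deficient mice (KO) and 3 from controls (WT). The labels give the KO genotype as ERCre+Zfp335f/f and the controls as littermates of wild type. The study's methods describe both groups as ERCre carriers, with Zfp335fl/fl only in the KO group, and state that mice 6 weeks old received 3 tamoxifen injections and were killed on day 7. ERCre is Cre recombinase fused to an estrogen receptor domain, which tamoxifen activates, and unlike Foxp3Cre it does not limit deletion to Tregs. The sources used here do not say whether each library came from a separate mouse, so p values measure the spread between these libraries, which may be technical.

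Killer lymphocytes store perforin and granzymes in granules and release them onto a target cell, where perforin opens the membrane for the granzymes. Lectin-like receptors of the Klr families tune this release, some through inhibitory phosphatases and others through activating adaptors. Some of the same genes are used by Tregs: KLRG1, an inhibitory receptor that binds cadherins, marks highly differentiated effector Tregs, and granzyme B and perforin have been tied to killing by Tregs.

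Library totals ranged from 133283969 to 209041812 counts. Zfp335, the deleted gene, fell from 120.1 ± 4.67 CPM (SD, n = 3 libraries), where CPM is the count of a gene scaled to a common library size, to 14.8 ± 0.451 CPM (SD, n = 3). Of 6 Treg markers, Ctla4 was called higher by edgeR's quasi-likelihood test, at 410 ± 9.03 CPM in WT and 645 ± 8.93 CPM in KO. Foxp3 (1136 ± 17.4 and 1052 ± 9.24 CPM) and Il2ra, which encodes the sort marker CD25 (480 ± 16.05 and 433 ± 5.99 CPM), were called lower, and Cd4, Cd3e and Ikzf2 gave no call (SD, n = 3 in each group). The sum of the 6 was 3353 to 3393 CPM in WT and 3434 to 3491 CPM in KO, higher in every KO library. Within that sum, Ctla4 alone was higher in every KO library. Foxp3, Il2ra, Ikzf2 and Cd3e were each lower in every KO library than in every WT library, and the groups overlapped for Cd4. Of all tested genes, 12% were called higher and 12.1% lower, and the groups did not overlap for 38.3%. The groups also differed in Xist RNA, at 0.187 to 0.424 CPM in WT and 124 to 145 CPM in KO, and its part in the results below was not tested. In bulk samples, fewer cells of a type and less RNA per cell cannot be told apart.

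Klrg1, Prf1 and Gzma RNA was lower in the KO libraries: Prf1 fell by 17.1%, Klrg1 fell by 18.4% and Gzma fell by 28.7%, and none of the 10 genes was called higher. By edgeR's quasi-likelihood test with an adjusted p under 0.05 as the call, 3 of 10 genes were lower, and 12.1% of all tested genes were called lower. None of the 10 was called higher, against 12% of all tested genes; at an unadjusted p under 0.05 the count of higher genes was also 0, and DESeq2 and limma-voom gave 0 as well. The median log2 fold change of the 10 genes was -0.17, and that of all tested genes was -0.0042. WT and KO libraries did not overlap for 4 genes, which were Klrg1, Prf1, Gzma and Klrk1, and did not overlap for 38.3% of all tested genes. With the cutoffs that the study states for its Foxp3Cre RNA-seq data (a 1.5-fold change, a p under 0.05 and an adjusted p under 0.1), applied here to the ERCre libraries, 0 of the 10 genes passed in either direction, while 4.37% of all tested genes were lower and 2.58% higher.

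**Figure D1:**
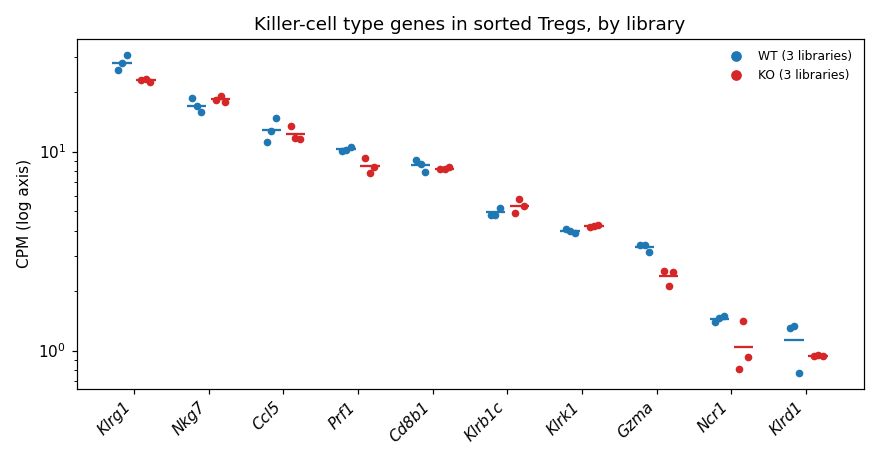
Level of each of the 10 genes in CPM (vertical axis, logarithmic) in the 3 WT and 3 KO libraries, with points for libraries and horizontal lines for group means. The 3 KO libraries lie below the 3 WT libraries for Klrg1, Prf1 and Gzma and above them for Klrk1, and the groups overlap for the other 6 genes.

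Klrg1, which encodes the cadherin-binding inhibitory receptor, had the highest WT mean of the 10 genes in CPM. It was at 25.6, 27.8 and 30.6 CPM in the WT libraries and at 22.9, 23.2 and 22.4 CPM in the KO libraries. Every KO library was lower than every WT library, and the WT libraries were the more spread, at 28.0 ± 2.54 CPM (SD, n = 3) against 22.8 ± 0.434 CPM (SD, n = 3). The level fell by 18.4%, and the log2 fold change was -0.29 (standard error, SE, 0.061, adjusted p of 0.00404 by edgeR's quasi-likelihood test). The call held in each of the 14 other settings tried for single genes, with log2 fold changes from -0.35 to -0.22 when 1 library was left out. Per kilobase of merged exons, Klrg1 stood at 19.8 CPM per kb in WT and 16.15 CPM per kb in KO. On that scale the WT order after Klrg1 was Nkg7 (18.6), Ccl5 (13.4), Cd8b1 (5.77), Prf1 (3.97), Gzma (3.29), Klrb1c (1.67), Ncr1 (0.936), Klrd1 (0.883) and Klrk1 (0.555 CPM per kb). The WT libraries of Klrg1 and Nkg7 overlapped on that scale, as did those of Ncr1 and Klrd1, and in KO the mean of Nkg7, at 20.0 CPM per kb, was above that of Klrg1. The gene lies on the minus strand of chr6:122270596-122282882 (GRCm38), 6.33 Mb from the NK gene complex, where 24 other lectin receptor genes of the lists used here span 2.64 Mb.

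The other lectin receptors among the 10 gave no call. Klrk1 encodes NKG2D, an activating receptor for stress-induced ligands. It was at 4.06, 4.0 and 3.89 CPM in WT and 4.16, 4.25 and 4.25 CPM in KO, so every KO library was above every WT library, by a small margin. The log2 fold change was 0.081 (SE 0.089, adjusted p of 0.574 by edgeR's quasi-likelihood test), with an interval of 2 standard errors either side from -0.098 to 0.26, and 0.050 when scaled by library size alone. Klrd1 encodes CD94, the partner chain of the NKG2 receptors. Its WT libraries were at 1.29, 1.33 and 0.773 CPM and its KO libraries at 0.937, 0.95 and 0.940 CPM, so WT replicate 3 lay below all KO libraries. The log2 fold change of Klrd1 was -0.31 (SE 0.209, adjusted p of 0.332 by the same test), with an interval from -0.72 to 0.11. It was -0.47 without WT replicate 3 (adjusted p of 0.0878 by edgeR's quasi-likelihood test) and -0.18 without WT replicate 2. Klrb1c, which encodes the NK cell antigen NK1.1 of C57BL/6 mice, was at 4.81, 4.81 and 5.19 CPM in WT and 4.93, 5.78 and 5.32 CPM in KO. Its groups overlapped, and its log2 fold change was 0.12 with an interval from -0.058 to 0.31, and 0.062 without KO replicate 2. Of its 50-base transcript stretches, 17.0% also occur in transcripts of other genes, most often those of Gm44511, which it overlaps, so their reads could be mixed. Gm44511 had no entry of its own in the count table.

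Ncr1 encodes NKp46, an activating receptor outside the lectin family and a defining NK cell marker. Levels were 1.39, 1.45 and 1.49 CPM in WT and 0.808, 1.41 and 0.924 CPM in KO. KO replicate 2 reached the WT range and the other KO libraries were below it, which made the KO spread (SD 0.318 CPM) larger than that of WT (SD 0.0517 CPM). The log2 fold change was -0.44 (SE 0.205, adjusted p of 0.148 by edgeR's quasi-likelihood test). Without KO replicate 2 it was -0.73 with an adjusted p of 0.0275 from the same test, so the call turned on that library, and without KO replicate 1 it was -0.29.

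**Figure D2:**
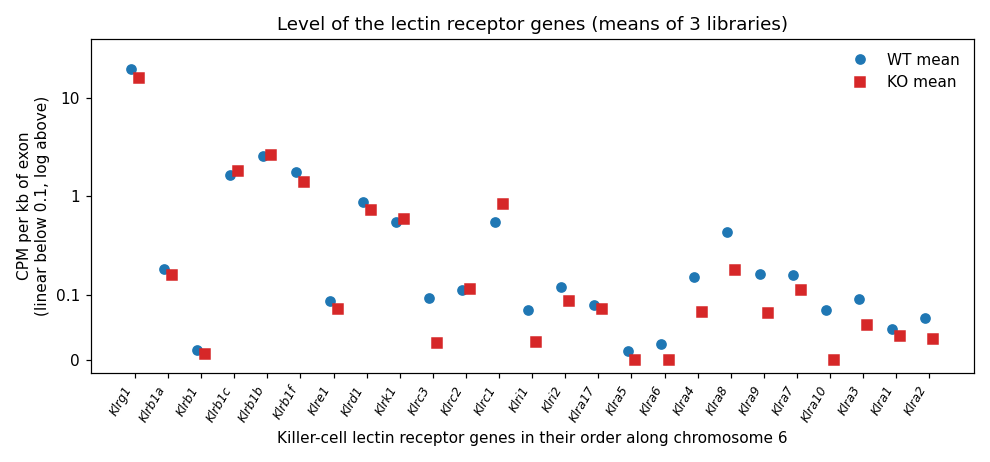
Mean level per kilobase of exon (vertical axis, CPM per kb, linear below 0.1 and logarithmic above) of Klrg1 and the other listed lectin receptor genes of chromosome 6 except Klrg2, in WT (circles) and KO (squares). Klrg1, at 19.8 CPM per kb in WT, stood above Klrb1b at 2.59, Klrb1f at 1.75 and Klrb1c at 1.67 CPM per kb.

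Among the granule genes, Prf1 and Gzma were lower in KO while Nkg7 gave no call. Prf1 encodes perforin and was at 10.003, 10.2 and 10.5 CPM in WT and 9.31, 7.81 and 8.38 CPM in KO. All KO libraries were below all WT libraries, and KO replicate 1 was the nearest to them. Its log2 fold change was -0.27 (SE 0.076, adjusted p of 0.0192 by edgeR's quasi-likelihood test), and its level fell by 17.1%. The call was lost without WT replicate 2 (adjusted p = 0.0692), without KO replicate 2 (adjusted p = 0.107) and without KO replicate 3 (adjusted p = 0.0695), in each case with the direction kept. Gzma, which encodes the tryptase granzyme A, was at 3.40, 3.39 and 3.14 CPM in WT and 2.50, 2.10 and 2.48 CPM in KO. No KO library came near the WT range, and the mean fell by 28.7%, from 3.31 ± 0.143 to 2.36 ± 0.223 CPM (SD, n = 3 each). The log2 fold change was -0.50 (SE 0.116, adjusted p of 0.0068 by edgeR's quasi-likelihood test), and the adjusted p was at most 0.044 in the 14 other settings. Nkg7, a granule membrane protein needed for efficient degranulation, was at 18.5, 16.8 and 15.7 CPM in WT and 18.2, 19.0 and 17.6 CPM in KO. Its groups overlapped through WT replicate 1, and its log2 fold change of 0.098 had an interval from -0.030 to 0.23. The value was 0.16 without WT replicate 1 (adjusted p of 0.0622 by edgeR's quasi-likelihood test) and 0.052 without WT replicate 3.

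The 250 bases before the RefSeq start (GRCm38.p6) of the granule genes Prf1 and Gzma are printed 5′ to 3′ because these genes were called lower and their promoters hold matches to the core letters of the T-box factors (AGGTGT or its reverse complement ACACCT) and the RUNX factors (TGTGGT or ACCACA). Capitals mark those matches, none of which overlap each other. The Prf1 window is chr10:61297586-61297835 on the plus strand and the Gzma window is chr13:113100982-113101231 on the minus strand.
Prf1: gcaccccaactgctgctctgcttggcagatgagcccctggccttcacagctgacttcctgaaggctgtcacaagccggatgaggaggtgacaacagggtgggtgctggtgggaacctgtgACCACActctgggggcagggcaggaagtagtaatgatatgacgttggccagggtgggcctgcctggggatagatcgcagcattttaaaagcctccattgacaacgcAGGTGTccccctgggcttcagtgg
Gzma: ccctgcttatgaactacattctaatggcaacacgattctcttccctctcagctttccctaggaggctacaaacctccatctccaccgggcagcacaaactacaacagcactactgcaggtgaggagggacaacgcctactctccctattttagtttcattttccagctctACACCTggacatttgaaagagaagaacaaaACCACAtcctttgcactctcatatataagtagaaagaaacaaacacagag
Of the 6 genes with an entry among the 10, which were Klrk1, Klrb1c, Ncr1, Nkg7, Prf1 and Gzma, T-box letters were found in 3 (Gzma, Nkg7 and Prf1) and RUNX letters in 6. Over 27025 promoters of the same length, 12% held the T-box letters and 14.2% the RUNX letters. Nkg7, Klrk1, Klrb1c and Ncr1 carry RUNX letters and gave no call, so the letters were found in genes of both kinds. The letters of NFIL3 (TTANGTAA or TTACNTAA) were found in 0 of the 6 and in 2.11% of all promoters. Klrg1, Klrd1, Ccl5 and Cd8b1 had no entry.

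Ccl5 and Cd8b1, which are typical of memory and CD8 T cells, gave no call. Ccl5 encodes a chemokine that attracts T cells and monocytes. It was at 11.1, 12.6 and 14.8 CPM in WT and 13.4, 11.8 and 11.6 CPM in KO, with overlapping groups. Its log2 fold change was -0.056 (SE 0.094, adjusted p of 0.725 by edgeR's quasi-likelihood test), with an interval from -0.24 to 0.13, and without WT replicate 3 it was 0.042. Leaving out any other library gave values from -0.15 to -0.018. Cd8b1 encodes the beta chain of the CD8 coreceptor and was at 9.11, 8.65 and 7.88 CPM in WT and 8.13, 8.13 and 8.32 CPM in KO. The KO libraries lay inside the WT range, and the log2 fold change was -0.069 with an interval from -0.22 to 0.078. It was -0.024 without WT replicate 1 and -0.11 without WT replicate 3. Cd8a, which encodes the alpha chain that the beta chain needs to reach the cell surface, was far lower at 0.464 ± 0.124 CPM (WT) and 0.436 ± 0.114 CPM (KO; SD, n = 3 each). Per kilobase of exon, the WT level was 5.77 CPM for Cd8b1 and 0.128 CPM for Cd8a, so the RNA of the chains was not in balance in these libraries. Of the 50-base stretches of Cd8b1, 6.28% also occur in other genes, most often Lman2l, which was at 35.9 ± 0.406 CPM in WT. In KO, Lman2l was at 40.8 ± 1.17 CPM and was called higher (adjusted p of 0.00564 by edgeR's quasi-likelihood test). Its part in the Cd8b1 values was not tested.

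A list of 79 other genes of the same pathway was set beside the 10, of which 78 were in the table and 67 were tested. Of these, 13 (19.4%) were called higher and 14 (20.9%) lower in KO, against 12% and 12.1% of all tested genes. The median log2 fold change of the 67 was -0.052, and that of all tested genes was -0.0042. Of the remaining genes in the table, 5 were listed at 0 in every library (H60c, Gzmd, Gzme, Gzmg and Gzmn) and 6 had counts of at most 13 (Klrb1, Klri1, Klra5, Klra6, Klra10 and Cdh4). Leaving out 1 library at a time kept 15 of the 27 calls in every fit. The other 12, with adjusted p values of at least 0.05 without some libraries, were Klrc1, Inpp5d, Ptpn6, Ptpn11, Cdh1, H60b, Gzmc, Ctsc, Cst7, Serpinb6b, Zeb2 and Tcf7. The count of higher genes dropped to 7 without WT replicate 2, to 6 without KO replicate 1 and to 8 without KO replicate 3. Over all tested genes the count of higher genes also dropped, from 2082 to 1341, 1457 and 1503 in the same order.

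**Figure D3:**
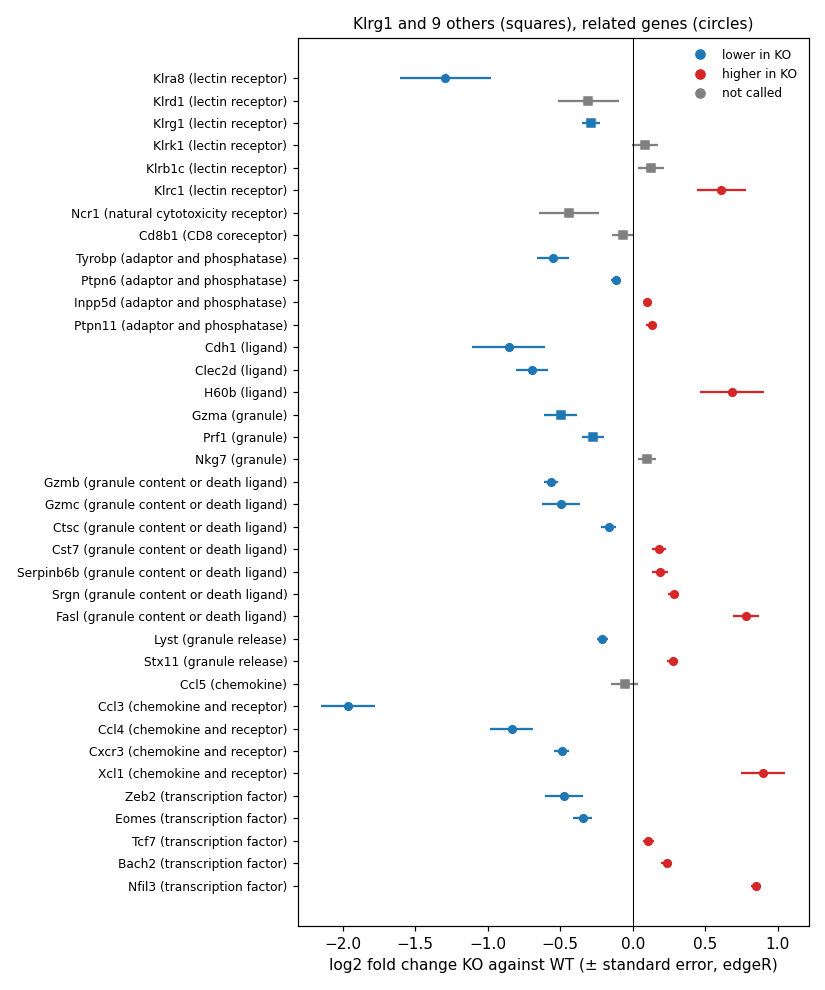
Log2 fold change of KO against WT (horizontal axis) of the 10 genes (squares) and the 27 related genes that were called (circles), with bars of 1 standard error from edgeR. The squares run from -0.50 for Gzma to 0.12 for Klrb1c, and the circles from -1.96 for Ccl3 to 0.90 for Xcl1.

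Among 17 tested lectin receptors, 1 was higher and 1 lower (5.88% each), against 12% and 12.1% of all tested genes. Klrc1 encodes NKG2A, the inhibitory partner of CD94, and was at 1.10, 0.987 and 1.19 CPM in WT and 1.90, 1.52 and 1.56 CPM in KO. All KO libraries were higher, with a log2 fold change of 0.61 (SE 0.168, adjusted p of 0.0178 by edgeR's quasi-likelihood test), although its partner Klrd1 gave no call. The call was lost without WT replicate 2 or KO replicate 1 (adjusted p from 0.0765 to 0.09), and 38.6% of the 50-base stretches of Klrc1 also occur in other genes, most often Klrc2. Klra8, which encodes the activating NK receptor Ly49H, was at 0.566, 0.546 and 0.431 CPM in WT and 0.163, 0.212 and 0.260 CPM in KO. Its log2 fold change was -1.29 (SE 0.314, adjusted p of 0.009 by edgeR's quasi-likelihood test), at a level below 1 CPM and with 33.1% of its stretches shared with other genes.

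Adaptors, phosphatases and ligands of the receptors changed in both directions. Tyrobp, which encodes the activating adaptor DAP12, was at 4.08, 4.55 and 4.32 CPM in WT and 2.61, 2.90 and 3.32 CPM in KO, with a log2 fold change of -0.55 (adjusted p of 0.00295 by edgeR's quasi-likelihood test). Hcst, which encodes the NKG2D adaptor DAP10, was at 34.6 ± 0.187 and 35.4 ± 1.19 CPM (SD, n = 3 each) and gave no call. The phosphatase genes Inpp5d and Ptpn11, whose products bind the inhibitory tail of KLRG1, were called higher by 0.098 and 0.13 on the log2 scale, and Ptpn6 lower at -0.12. The Inpp5d call was kept without WT replicate 1 and lost without any other library (adjusted p up to 0.145), with upper-quartile scaling (0.0805) and with library size alone (0.141). The Ptpn11 call was lost without WT replicate 2 or any one KO library (up to 0.0874) and with library size alone (0.0637), and the Ptpn6 call without WT replicate 2, KO replicate 2 or KO replicate 3 (up to 0.0999). Cdh1, which encodes the KLRG1 ligand E-cadherin, had a log2 fold change of -0.86 (adjusted p of 0.0241 by edgeR's quasi-likelihood test) at 0.865 ± 0.208 CPM in WT and 0.465 ± 0.0278 CPM in KO. Its call was lost without WT replicate 3 or any one KO library, with adjusted p values from 0.0625 to 0.0794. Clec2d, the ligand of NKR-P1 receptors, was at 42.4, 53.7 and 57.1 CPM in WT and 33.7, 30.4 and 30.4 CPM in KO, with a log2 fold change of -0.69 (adjusted p of 0.00407 by edgeR's quasi-likelihood test). The NKG2D ligand gene H60b was called higher at 0.68, and the call was kept without KO replicate 2 and lost without any other library (adjusted p from 0.0513 to 0.16), with DESeq2 (0.0587) and with limma-voom (0.0604). H2-T23, which encodes the CD94 ligand Qa-1, was at 468 ± 18.4 CPM in WT and 456 ± 9.04 CPM in KO and gave no call.

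Of 13 tested genes for granule contents and death ligands, 4 were higher (30.8%) and 3 lower (23.1%), against 12% and 12.1% of all tested genes. Gzmb, which encodes granzyme B, was at 38.6, 38.3 and 40.7 CPM in WT and 25.9, 27.8 and 25.7 CPM in KO. The groups stood well apart, with a log2 fold change of -0.57 (SE 0.048, adjusted p of 2.06e-06 by edgeR's quasi-likelihood test). Gzmc was also lower at -0.50, a call lost without WT replicate 2, KO replicate 1 or KO replicate 3 (adjusted p from 0.0524 to 0.0636). Ctsc, which encodes the protease that activates granzymes, was lower at -0.17, a call kept without WT replicate 1 and lost without any other library (adjusted p from 0.0551 to 0.118). Fasl, which encodes the death ligand of the Fas receptor, went the other way, at 3.61, 3.99 and 4.21 CPM in WT and 6.58, 6.69 and 6.87 CPM in KO. Its log2 fold change was 0.78 (SE 0.087, adjusted p of 2.63e-05 by edgeR's quasi-likelihood test). Srgn, which encodes the granule proteoglycan serglycin, was higher at 0.28 (adjusted p of 6.33e-05 by the same test). The inhibitor genes Cst7 and Serpinb6b were higher at 0.18 and 0.19, with calls lost without KO replicate 1 (Cst7, adjusted p = 0.0874) and without WT replicate 2 or any one KO library (Serpinb6b, adjusted p from 0.0625 to 0.137), and for Serpinb6b also with library size alone (adjusted p = 0.0606). Of 6 genes for granule release, the fusion gene Stx11 was higher at 0.27 and the lysosome trafficking gene Lyst was lower at -0.21. That was 16.7% in each direction, against 12% higher and 12.1% lower of all tested genes. Rab27a, Unc13d, Stxbp2 and Ap3b1 gave no call.

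The chemokines that act with Ccl5 differed among themselves. Ccl3 encodes an inflammatory chemokine and was at 5.75, 4.42 and 4.51 CPM in WT and 1.46, 1.52 and 0.800 CPM in KO. Every WT library was above every KO library, with a log2 fold change of -1.96 (SE 0.186, adjusted p of 7.29e-06 by edgeR's quasi-likelihood test). Ccl4, its neighbor, was at 1.86, 1.85 and 1.89 CPM in WT and 1.10, 1.03 and 1.01 CPM in KO (log2 fold change -0.83, adjusted p of 0.00112 by the same test). Cxcr3, a receptor of T cells recruited by interferon-induced chemokines, was lower at -0.49 (adjusted p = 1.71e-05). Xcl1, which attracts cross-presenting dendritic cells, was higher, with 1.49, 2.14 and 2.67 CPM in WT and 3.72, 3.85 and 3.88 CPM in KO (log2 fold change 0.90, adjusted p of 0.000873 by edgeR's quasi-likelihood test).

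**Figure D4:**
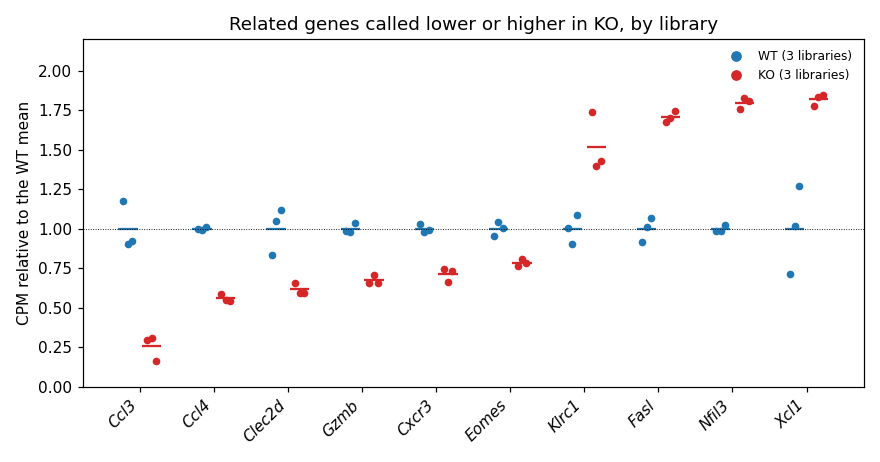
CPM of 10 related genes in each library relative to the WT mean of the gene (vertical axis, starting at 0), with points for libraries and horizontal lines for group means. All 3 KO libraries lie below all 3 WT libraries for Ccl3, Ccl4, Clec2d, Gzmb, Cxcr3 and Eomes and above them for Klrc1, Fasl, Nfil3 and Xcl1.

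The promoters of Gzmb, Ccl3 and Klrc1 are shown because these genes moved with or against Gzma and Prf1 and hold the RUNX letters, again in capitals in the 250 bases before the RefSeq start (GRCm38.p6). The windows are chr14:56262335-56262584, chr11:83649379-83649628 and chr6:129678974-129679223, each on the minus strand.
Gzmb: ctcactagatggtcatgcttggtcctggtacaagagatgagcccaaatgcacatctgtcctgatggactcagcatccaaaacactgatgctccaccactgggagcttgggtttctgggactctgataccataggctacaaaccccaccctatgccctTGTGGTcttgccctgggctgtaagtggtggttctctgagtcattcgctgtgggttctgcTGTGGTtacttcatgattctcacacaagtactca
Ccl3: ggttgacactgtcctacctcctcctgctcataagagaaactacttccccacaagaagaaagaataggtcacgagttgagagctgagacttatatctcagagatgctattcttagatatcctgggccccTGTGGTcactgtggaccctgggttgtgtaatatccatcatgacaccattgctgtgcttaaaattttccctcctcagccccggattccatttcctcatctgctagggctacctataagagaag
Klrc1: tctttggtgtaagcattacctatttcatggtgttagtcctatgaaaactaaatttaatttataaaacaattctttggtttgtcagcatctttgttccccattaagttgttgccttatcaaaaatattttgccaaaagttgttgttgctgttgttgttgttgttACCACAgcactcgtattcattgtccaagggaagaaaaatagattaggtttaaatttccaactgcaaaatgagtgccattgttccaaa
RUNX letters were found in 21 of 68 related promoters and T-box letters in 4 of 68. NFIL3 letters were found in 5 of 68 (Gzmc, Gzmd, Gzme, Gzmf and Gzmg, neighboring paralogs). Among the related genes that were called, RUNX letters stand in Gzmb, Gzmc, Ccl3 and Cxcr3, called lower, and in Klrc1, Cst7 and Xcl1, called higher.

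Of 10 transcription factors of killer lymphocytes, 3 were higher (30%) and 2 lower (20%), against 12% and 12.1% of all tested genes. Eomes, a T-box factor of NK and memory CD8 T cells, was at 11.1, 12.04 and 11.6 CPM in WT and 8.87, 9.38 and 9.03 CPM in KO. Its log2 fold change was -0.35 (SE 0.065, adjusted p of 0.0018 by edgeR's quasi-likelihood test), while its relative Tbx21 gave no call at -0.10. Runx3 was at 104 ± 1.70 CPM in WT and 99.8 ± 1.22 CPM in KO and gave no call. Nfil3, needed for NK cell development, was at 58.8, 58.8 and 60.9 CPM in WT and 104.7, 108.6 and 107.6 CPM in KO, with a log2 fold change of 0.85 (SE 0.036, adjusted p of 2.75e-09 by the same test). Bach2 and Tcf7, factors of resting and memory T cells, were higher at 0.23 and 0.11, and Zeb2, a factor of terminal effector cells, lower at -0.47. The Tcf7 call was kept without WT replicate 3 and lost without any other library (adjusted p from 0.0516 to 0.142), with upper-quartile scaling (0.0663), with library size alone (0.133) and with edgeR's legacy method (0.0516). The Zeb2 call was lost without WT replicate 1, KO replicate 1 or KO replicate 2 (adjusted p from 0.0516 to 0.0736).

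Marker genes of several other cell types were also called lower in KO. The summed level of 9 NK cell markers, among them the members Ncr1 and Klrb1c, ranged from 35.3 to 40.1 CPM in WT and from 30.4 to 32.8 CPM in KO, with a log2 ratio of -0.26. By an exact two-sided permutation test over libraries the p was 0.1, the smallest that 3 against 3 can give (0.117 after Benjamini-Hochberg adjustment over 7 marker lists). Of those 9 markers, 3 were called lower (Klra8, Eomes and Itga2), against 12.1% of all tested genes. The count called higher was 0 (0 at an unadjusted p under 0.05 in edgeR), against 12%. Mean CPM fell from 11.57 in WT to 9.09 in KO for Eomes and from 10.06 to 6.35 for Itga2. It rose from 4.94 to 5.34 for Klrb1c and from 8.88 to 9.31 for Cd160, both without a call, and was lower in KO for the remaining markers. The 4 markers with a mean below 1 CPM, picked by that level alone, were Klre1, Klra4, Klra8 and Klra9. They lay between 0.0241 and 0.566 CPM, and none was at 0 in a library. Their sum was 1.04 to 1.43 CPM in WT and 0.612 to 0.737 CPM in KO, a mean of 1.23 ± 0.194 against 0.669 ± 0.0635 CPM (SD, n = 3 each). The groups did not overlap in this sum, but they overlapped for Klre1 and for Klra9 taken alone. Ncr1 and Klrb1c were above that level and are not in this sum. The CD8 T cell markers Cd8a and Cd8b1 summed to 8.34 to 9.71 CPM in WT and 8.62 to 8.65 CPM in KO, with an exact permutation p of 0.4. Most of this sum was Cd8b1, itself among the 10 genes, at means of 8.55 CPM in WT and 8.20 CPM in KO. Cd8a was at 0.464 and 0.436 CPM.

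The gamma-delta T cell markers Trdc, Tcrg-C1 and Tcrg-C4 were all called lower, against 12.1% of all tested genes. Their sum was 20.0 to 22.0 CPM in WT and 14.1 to 15.99 CPM in KO. Summed B cell markers were 38.5 to 42.4 CPM in WT and 19.1 to 20.8 CPM in KO, with 4 of 4 genes lower. Myeloid markers were 32.3 to 37.4 and 16.6 to 18.9 CPM, with 3 of 4 genes lower, and red cell markers 25.6 to 30.2 and 1.16 to 1.40 CPM, with 2 of 2 lower. The other myeloid gene, Csf1r, went up without a call (adjusted p of 0.0821 by edgeR's quasi-likelihood test). Its mean rose from 8.80 to 10.3 CPM, and every KO library was above every WT library (groups did not overlap for 38.3% of all tested genes). The groups did not overlap in these sums, and the part of these cells in the lower Klrg1, Prf1 and Gzma values was not tested.

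**Figure D5:**
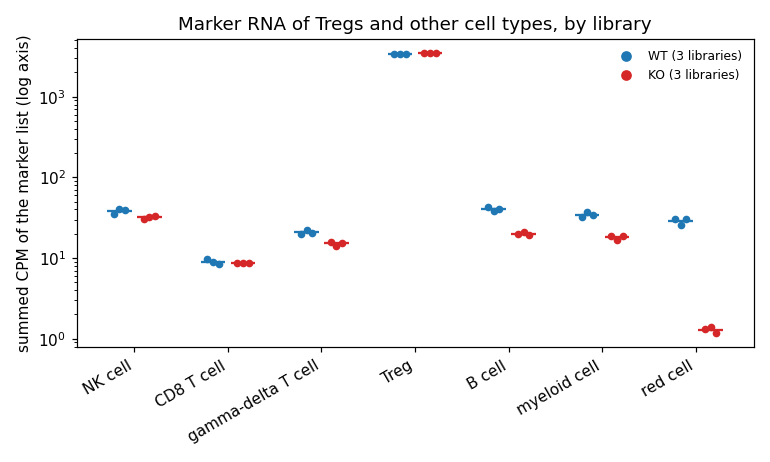
Summed CPM of marker lists for Tregs and other cell types (vertical axis, logarithmic) in each WT and KO library, with horizontal lines for group means. NK, gamma-delta T, B, myeloid and red cell sums were lower in all 3 KO libraries than in all 3 WT libraries, and the CD8 T cell sums overlapped.

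Over the 6 libraries, the genes whose log2 CPM was most like that of Klrg1 were Ss18, Gm20559, Mrps6, Zfp677 and Socs2, with Pearson's r from 0.994 to 0.998. They were the top of 11008 candidates whose log2 CPM averaged 1 or more, of which 340 had an r above 0.95, and the points share the WT and KO difference. Of the 5, 4 were called lower by edgeR's quasi-likelihood test, at log2 fold changes from -0.42 to -0.16, and Mrps6 was not (adjusted p = 0.0555). Among the 10 genes themselves, r was 0.92 for Prf1 with Gzma and -0.97 for Klrg1 with Klrk1, given as a description over 6 libraries that fall into the study's groups.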

How the data were processed

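The authors deposited raw read counts per gene symbol for 6 libraries, and the submitters' processing notes name HISAT2, DESeq2 and mm10. Which program made the counts, and whether it used strand, is not given in the sources used here. Counts of 1 were rarer (620 entries) than counts of 4 (2579), so no counting interval is given. For 40 repeated symbols the entry with the most counts kept the name. WT and KO were compared with the quasi-likelihood test of edgeR 4.0.16 (R 4.3.3), with TMM scaling, filterByExpr and Benjamini-Hochberg adjustment over 17307 genes. Standard errors came from the F statistic. Alternatives used DESeq2 1.42.0, limma 3.58.1, other scalings and filters, a replicate block and each library left out. The tests were checked on simulated counts. Gene positions and exon lengths came from GENCODE for GRCm38, and promoters from RefSeq. Same-numbered libraries deviated from their group means with correlations of 0.052, -0.0099 and -0.027, so same-numbered libraries were not paired. The members and lists were chosen with earlier results of these data known. The genes named were the 10, the related genes that were called, marker genes and the 5 most like Klrg1; uncalled genes named beside them were chosen after their values were seen. A related gene is counted in the lists but not reported here.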

Additional observations from a re-analysis of the deposited data

How the results depend on the processing

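With the cutoffs of the study's Foxp3Cre data, 0 of the 10 genes, 5 related genes lower and 5 related genes higher passed. At those cutoffs, 4.37% of all tested genes were lower and 2.58% higher. Leaving out 1 library gave 2 to 3 of the 10 genes lower, 10 to 16 related genes lower and 6 to 12 higher. Over all genes, the same fits gave 1399 to 2501 lower and 1341 to 2495 higher. Ccl5 turned from -0.056 to 0.042 without WT replicate 3, uncalled in both, and ranged from -0.15 to 0.042 over the libraries left out. Without KO replicate 2, Ncr1 was called lower and Prf1 was not. Over 38 named genes and 532 pairs of gene and alternative, 474 kept direction and call, 56 lost the call, 1 gained it and 1 turned, and the causes were not tested. Scaling by library size alone gave 1622 genes higher and 2575 lower among all genes (61.35% lower), against 50.07% lower with TMM. The replicate block left 3 of the 10 genes lower, 14 related genes lower and 13 higher, with 2143 genes higher and 2084 lower in all. The NK marker ratio stayed between -0.31 and -0.22 and the CD8 marker ratio between -0.12 and -0.0060 on the log2 scale. Levels near or below 1 CPM (Klrd1, Ncr1, Klra8) had the largest standard errors among the genes named with one.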
